A study of Mus musculus with 2 samples.

Results

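The genes that license replication origins and build the replication fork were followed in mouse embryonic stem (ES) cells, in 1 control culture and 1 culture labelled as a knockout (KO) of Dnmt1. The set holds 41 genes chosen by name: the origin recognition complex and its licensing partners, the replicative helicase, the DNA polymerases, the clamp loader, replication protein A, the enzymes that join Okazaki fragments, and ribonucleotide reductase. All 41 had a probe set assigned to that gene alone, out of 18193 genes measured on Affymetrix Mouse Genome 430 2.0 arrays, with 91 probe sets between them. Dnmt1 is the enzyme that copies DNA methylation onto the new strand behind the fork. The KO group is known by its sample title only, since the source name of both samples describes a control. The labels give no allele, cell line, clone or passage for either culture, and name no treatment of the cells. Each group was measured on 1 array, so there is no replicate error for any value and no difference was tested.

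Replication of a chromosome begins in the G1 phase, when the origin recognition complex (ORC, Orc1 to Orc6) binds an origin and, with Cdc6 and Cdt1, loads rings of Mcm2 to Mcm7 onto DNA. In S phase the ring is joined by Cdc45 and the GINS complex to form the active helicase, polymerase alpha with primase lays down primers, polymerases epsilon and delta extend them, and replication factor C (RFC) loads the sliding clamp Pcna that holds the polymerases on DNA. Many of these genes are transcribed under the E2F factors, and ES cells, which cycle fast and spend much of their time in S phase, are known for high levels of them.

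E2F factors bind short words that begin with a run of T and end in CGC. The promoters of the 33 members found in the RefSeq promoter table (build GRCm38.p6, 250 bases before to 50 after each annotated start) were searched on both strands for the 4 spellings TTTGGCGC, TTTCCCGC, TTTGCCGC and TTTCGCGC, whose matches may overlap. At least 1 match lay in the promoter of 14 of the 33 members (42.4%), compared with 2.6% of all 27025 genes in that table and 4.96% of the 8925 genes in it with a signal above the median of each array. By role, a match was found in 5 of 8 helicase genes, 4 of 8 licensing genes, 3 of 6 polymerase genes, 1 of 4 clamp loader genes and none of 3 single-strand binding genes. The 4 promoters below were chosen among those with a match before the start. Mcm5 and Gins3 are helicase genes of chromosome 8, whose ratio of KO to control signal was below that of the median gene. Mcm6 and Mcm7 are ring subunits whose ratio was not. Gins2 and Gins4, the other helicase genes of chromosome 8, are not in the promoter table, and neither is the ring subunit Mcm4. The promoters of Orc6, also on chromosome 8, and of the ring subunit Mcm2 have no match. The 2 matches of the ring subunit Mcm3 lie after its start. Each printed sequence is the 250 bases before the start, 5′ to 3′ on the gene's strand, with matches in capitals.
Mcm5, chr8:75109259-75109508, plus strand: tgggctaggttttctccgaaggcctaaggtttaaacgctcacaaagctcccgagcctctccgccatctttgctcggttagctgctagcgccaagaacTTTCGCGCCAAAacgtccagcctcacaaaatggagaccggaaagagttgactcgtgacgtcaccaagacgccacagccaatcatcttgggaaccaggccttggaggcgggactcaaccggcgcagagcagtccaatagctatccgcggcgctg
Gins3, chr8:95633309-95633558, plus strand: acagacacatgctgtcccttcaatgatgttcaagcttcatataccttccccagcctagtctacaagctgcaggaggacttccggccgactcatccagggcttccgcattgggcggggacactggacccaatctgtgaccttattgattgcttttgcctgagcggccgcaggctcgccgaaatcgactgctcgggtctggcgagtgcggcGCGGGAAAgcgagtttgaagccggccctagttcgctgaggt
Mcm6, chr1:128359706-128359955, minus strand: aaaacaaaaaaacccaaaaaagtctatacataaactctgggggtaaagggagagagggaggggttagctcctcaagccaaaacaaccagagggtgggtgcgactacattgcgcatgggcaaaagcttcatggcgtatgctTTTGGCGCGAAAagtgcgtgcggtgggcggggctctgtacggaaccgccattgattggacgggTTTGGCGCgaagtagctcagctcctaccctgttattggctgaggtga
Mcm7, chr5:138171884-138172133, minus strand: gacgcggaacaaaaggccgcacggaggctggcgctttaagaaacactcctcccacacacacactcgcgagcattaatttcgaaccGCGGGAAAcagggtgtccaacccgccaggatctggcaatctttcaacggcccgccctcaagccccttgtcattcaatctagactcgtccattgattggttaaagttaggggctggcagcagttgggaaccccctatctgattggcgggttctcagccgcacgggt
The capitals in Mcm5 are 2 overlapping matches on opposite strands, TTTCGCGC and TTTGGCGC. The longer run of capitals in Mcm6 is the same pair in the opposite orientation, and Mcm6 has another match nearer the start. Mcm7 has 1 further match in the 50 bases after its start. A match describes letters in this window and does not show binding.

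The deposited values are MAS5 signals, linear intensities in arbitrary units. Signals were not on a common level: the median gene was 0.43 brighter on the KO array on the log2 scale, or 1.34-fold. Each log2 ratio below is KO minus control relative to this shift, unless it is called as deposited. A signal at or below the median of its array, the floor (60.9 for the control and 74.2 for the KO array), was treated as not measured. Each gene stands on its brightest probe set. Where several probe sets of a gene exceeded both floors, the SD between them is given as a technical scale. It was 0.17 on the log2 scale pooled over the 25 members with at least 2 such probe sets and 0.24 over 4704 genes, and covers neither culture nor array differences. Dnmt1 itself went from 1949.1 in the control to 262.1 in the KO culture, which is 9.99-fold lower after allowing for the shift. All 13 ES cell markers examined exceeded both floors, among them Pou5f1 at 2689.7 and 3297.0. Relative to the shift 3 of them (Klf4, Nanog and Esrrb) were at least 2-fold higher and none 2-fold lower. Of the 12226 genes exceeding at least 1 floor, 1.09% were that much higher and 0.532% lower. Averaged over probe sets, Esrrb was at 0.84 ± 0.40 (SD, 3 probe sets), short of 2-fold, and Klf4 at 1.61 ± 0.43 (SD, 2 probe sets). The 13 log2 ratios had a median of -0.09, from -0.617 for Utf1 to 1.915 for Klf4, with 5 above the shift and 8 below it. Of 21 fibroblast markers, which feeder cells would carry, 9 exceeded both floors, 2 exceeded 1 of them and 10 exceeded none. None was at 0, their summed signals were 3175.0 and 3700.1, and Col1a1, an abundant fibroblast collagen, was at 94.3 and 80.2. The 11 that exceeded at least 1 floor had log2 ratios with a median of -0.03, from -1.46 for Tagln to 0.99 for Fbln1, with 5 above the shift and 6 below it. The part of such cells in the values below was not tested.

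Replication genes were expressed on both arrays and, as a set, differed little between the cultures beyond the shift common to most genes. This is not particular to them, since most genes of similar brightness differed little as well. All 41 members exceeded both floors, with control signals from 209.0 to 4454.4 and KO signals from 241.3 to 6292.6. None was at least 2-fold higher and none at least 2-fold lower, where 1.09% and 0.532% of the 12226 genes exceeding at least 1 floor were. At a 1.5-fold threshold none was higher (4.74% of all genes) and 2 were lower (4.25%), namely Pola2 and Gins4. The median log2 ratio of the members was 0.01, with 23 above the shift and 18 below it, where 50% of the 10995 genes exceeding both floors lay below it. A log2 ratio within 0.25 of the shift was found for 31 of 41 members (75.6%), compared with 60.9% of those genes. Members are bright genes: of the 6892 genes at least as bright as the dimmest member, 66.3% lay within that distance. As deposited, 38 members were brighter on the KO array, and Gins2, Gins4 and Pola2 (7.32% of the members) were dimmer, as were 8.6% of the 10995 genes. No member was 2-fold higher or lower as deposited either, where 4.92% and 0.0982% of the 12226 genes were. In whole cultures, a change in the share of cells in S phase and a change in RNA per such cell cannot be told apart.

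**Figure D1:**
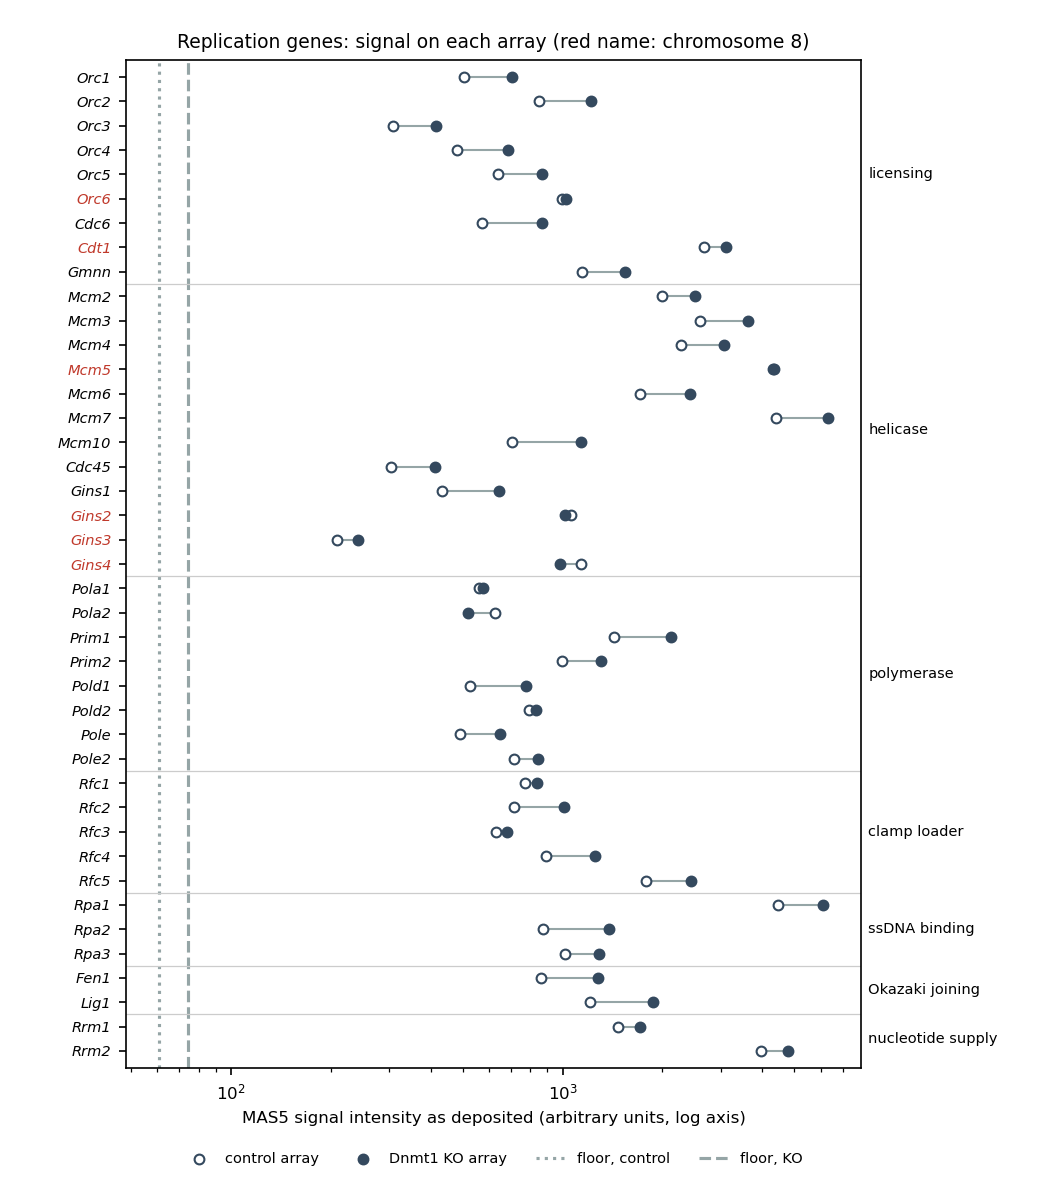
Deposited MAS5 signal of each of the 41 members on the control array (open circles) and the Dnmt1 KO array (filled circles), on a log axis, grouped by role. Dotted and dashed lines are the floors of 60.9 and 74.2, names in red are genes of chromosome 8, and all members lie above both floors; the joining lines point to the left only for Gins2, Gins4 and Pola2.

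Among the licensing genes, 7 of 9 lay at or just above the shift and the other 2, Orc6 and Cdt1, lay below it. The median of the 9 was 0.01 (0.44 as deposited). Orc1, the largest ORC subunit and an ATPase, had a signal of 504.7 in the control and 703.9 in the KO culture, and its log2 ratio was 0.05 (mean 0.02 ± 0.06, SD between 2 probe sets). Orc2 went from 850.7 to 1220.5, a log2 ratio of 0.10. Orc3, Orc4 and Orc5, further subunits of the ring that encircles origin DNA, had ratios of 0.01, 0.08 and 0.01. Orc4 was less certain than its value, since its 3 probe sets averaged -0.14 ± 0.19 (SD) and differed in sign. Orc6, the small subunit and the only ORC gene on chromosome 8, was lower than the other 5, whose ratios by the brightest probe set lay between 0.01 and 0.10. With the mean over probe sets above the floor on at least 1 array, Orc3 was at -0.28 and Orc4 at -0.12 beside -0.37 for Orc6. Its signals were nearly equal at 995.3 and 1026.0, which gave a log2 ratio of -0.38 on a single probe set.

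Among the factors that act with ORC, Cdt1 alone lies on chromosome 8, and 1 gene cannot show a difference by chromosome. Cdc6, the ATPase that joins ORC to recruit the helicase, went from 570.5 to 865.5, a log2 ratio of 0.18. Cdt1, which brings the Mcm ring to ORC and lies on chromosome 8, went from 2659.7 to 3113.3, a ratio of -0.20 (mean -0.14 ± 0.08, SD between 2 probe sets). Geminin (Gmnn), the inhibitor that binds Cdt1 after origins have fired, went from 1145.6 to 1538.4, which is the shift itself, 1.34-fold as deposited. The inhibitor and Cdc6 were thus at or above the median gene and Cdt1 was below it, by an amount between the pooled SDs of 0.17 over members and 0.24 over all genes.

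The helicase genes divided by chromosome. The 8 members outside chromosome 8 had a median log2 ratio of 0.06 and lay between -0.09 and 0.27. The 4 on chromosome 8 had a median of -0.45 and lay between -0.64 and -0.22, so the ranges by the brightest probe set did not overlap. With the floor at the 75th percentile this no longer held by the values. Gins3 was then at -0.067 or below, with its KO signal at the floor, and Mcm2 was at -0.105. Nor did it hold over all probe sets, since 1 of Mcm3 was at -0.62. Of all 601 genes of chromosome 8 exceeding both floors, 90.3% lay below the shift, and their median was -0.37. The median over 10363 genes of other chromosomes was 0.015, so the division is not particular to helicase genes. Of the ring subunits Mcm2 to Mcm7, which are needed in equal number, 5 kept within 0.09 of the shift. Mcm2 went from 1987.8 to 2514.4 (log2 ratio -0.09), and Mcm3 from 2594.9 to 3625.2 (0.06). Mcm4 went from 2276.7 to 3058.8, again at the shift. Mcm6 went from 1717.3 to 2418.8 (0.07), and the SD between its 2 probe sets was 0.01. Mcm7 went from 4409.3 to 6292.6 (0.09), and its 4 probe sets were all above the shift (mean 0.13 ± 0.10, SD). The 5 probe sets of Mcm3 did not share a sign, and the dimmest of them, at 136.0 and 119.2, had a ratio of -0.62. Mcm5, the subunit encoded on chromosome 8, was the exception among the 6: its signal was 4312.5 in the control and 4331.3 in the KO culture, a log2 ratio of -0.42. Its second probe set gave -0.16, so the mean was -0.29 ± 0.19 (SD).

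The GINS complex, which clamps the Mcm ring to Cdc45, has 3 of its 4 subunits on chromosome 8. Gins1, on chromosome 2, went from 433.8 to 644.0, a log2 ratio of 0.14. Gins2 (Psf2) went from 1060.1 to 1018.5, a ratio of -0.48, with a second probe set at -0.80 (mean -0.64 ± 0.23, SD). Gins3 (Psf3) went from 209.0 to 241.3, a ratio of -0.22, with a second probe set at -0.68 (mean -0.45 ± 0.33, SD). Gins4 (Sld5) was the lowest helicase gene, from 1133.4 to 979.8, 1.55-fold lower relative to the shift on its 1 probe set. The 4 GINS ratios thus spanned more than those of the 6 ring subunits, with an SD between genes of 0.34 against 0.19. Cdc45, the remaining helicase partner, went from 303.4 to 413.4 (0.02). Mcm10, which helps the loaded helicase to start unwinding, had the highest ratio of all 41 members, 703.6 to 1139.6 or 0.27 (mean 0.23 ± 0.06, SD between 2 probe sets), and was still short of 1.5-fold.

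**Figure D2:**
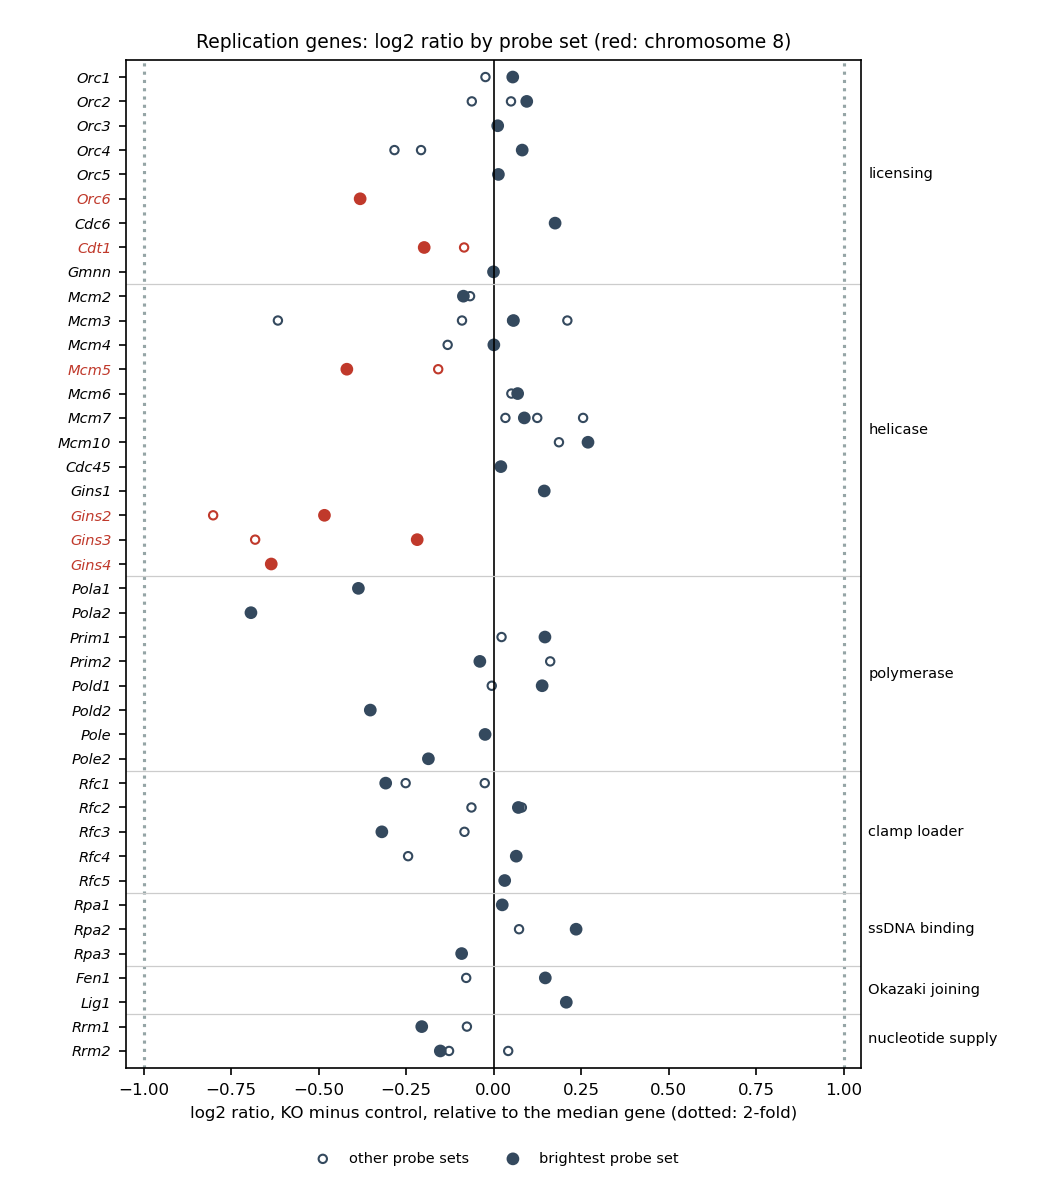
Log2 ratio (KO minus control, relative to the median gene) of every member probe set that exceeded both floors. Filled circles are each gene's brightest probe set, open circles its other probe sets, red marks chromosome 8, and dotted lines mark 2-fold; all 10 red points lie below 0 and no point reaches a dotted line.

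The polymerase genes were the role group with most members below the shift that did not lie on chromosome 8. Their median was -0.11 (0.31 as deposited), and 6 of 8 lay below the shift. The 2 polymerase alpha subunits had the lowest values, with Pold2 close to Pola1, while the primase subunits of the same complex lay near the shift. Pola2, the regulatory B subunit of polymerase alpha, went from 624.3 to 518.5, the lowest ratio of all members at -0.69, or 1.62-fold lower. Its other 2 probe sets were below the floor on both arrays, so the value rests on 1 probe set. Pola1, the catalytic subunit, encoded on the X chromosome, went from 558.1 to 573.6, a ratio of -0.39, also on 1 measured probe set. Prim1, the catalytic primase subunit, went from 1425.1 to 2118.4 (0.15) and Prim2, its large partner, from 996.8 to 1302.5 (-0.04, with a second probe set at 0.16). Polymerase delta was split between its catalytic subunit Pold1, which went from 524.7 to 775.7 (0.14), and its accessory subunit Pold2. The latter went from 791.2 to 832.3 (-0.35) on its 1 probe set. Of polymerase epsilon, the catalytic subunit Pole went from 490.2 to 647.2 (-0.02) and the accessory subunit Pole2 from 713.3 to 842.0 (-0.19).

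The clamp loader genes had a median log2 ratio of 0.03, and 3 of 5 lay above the shift. Rfc1, the large subunit, went from 772.3 to 837.8 (-0.31). Its 3 probe sets averaged -0.19 ± 0.15 (SD) and were all below the shift. Rfc3, a small subunit, was similar at 632.0 and 680.1 (-0.32, mean -0.20 ± 0.17, SD between 2 probe sets). The small subunits Rfc2, Rfc4 and Rfc5 had ratios of 0.07, 0.06 and 0.03. Rfc5 went from 1780.1 to 2443.5, Rfc2 from 715.7 to 1009.7 and Rfc4 from 888.8 to 1248.9. The 2 probe sets of Rfc4 differed in sign (mean -0.09 ± 0.22, SD). The SD between the 5 genes was 0.20, which lies between the pooled SDs between probe sets of one gene given above.

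The remaining fork genes kept within 0.25 of the shift. Replication protein A coats single-stranded DNA as a trimer: its large subunit Rpa1 went from 4454.4 to 6087.0 (0.03), Rpa2 from 874.1 to 1382.2 (0.24) and Rpa3 from 1019.3 to 1285.1 (-0.09). The flap nuclease Fen1 and DNA ligase Lig1, which trim and seal Okazaki fragments, were both above the shift. Fen1 went from 859.4 to 1278.4 (0.15), although its second probe set was at -0.08, and Lig1 from 1210.1 to 1877.3 (0.21). The ribonucleotide reductase subunits, which supply deoxynucleotides, were both below it. The large subunit Rrm1 went from 1469.7 to 1712.3 (-0.20) and the small S-phase subunit Rrm2 from 3956.2 to 4780.3 (-0.15, mean -0.08 ± 0.11, SD between 3 probe sets). These groups hold 2 or 3 genes each, and none of the 7 ratios exceeded 0.24 in size, the pooled SD between probe sets over all genes, although those of Rpa2, Lig1 and Rrm1 exceeded the 0.17 pooled over members.

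Members encoded on chromosome 8 were lower, relative to the shift, than most of the others. The RefSeq gene table places 6 members there, namely Mcm5, Orc6, Gins2, Gins3, Cdt1 and Gins4. All 6 lay below the shift, with a median of -0.40, and the 35 members on other chromosomes had a median of 0.03, with 12 below the shift. The difference of these medians was -0.43. As deposited the medians were 0.03 and 0.45, so the chromosome 8 members were close to equal on the arrays while most others were brighter on the KO array. As deposited 2 of the 6 were dimmer on the KO array, where 41.6% of the measured genes of chromosome 8 were. Gins4 was the 1 of the 6 that was at least 1.5-fold lower relative to the shift, where 19.5% of those genes were. By probe set exceeding both floors, 10 of 10 on chromosome 8 and 29 of 66 elsewhere lay below the shift. Those 10 are repeat readings of the same 6 genes and add no further genes. Lower values were common along chromosome 8: 90.3% of its 601 genes exceeding both floors lay below the shift, and their median was -0.37, or -0.39 over the 418 at least as bright as the dimmest member. Both sets include the 6 members. The median over 10363 genes of other chromosomes was 0.01.

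**Figure D3:**
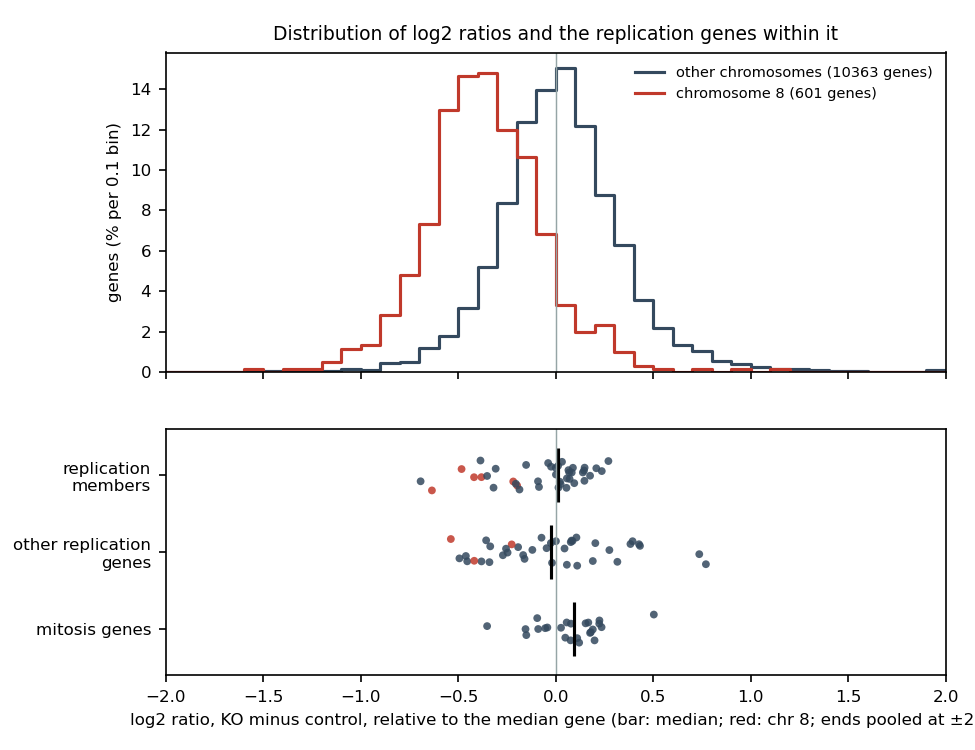
Upper panel: share of genes per bin of 0.1 in log2 ratio, for the 601 genes of chromosome 8 (red) and 10363 genes of other chromosomes (dark). Lower panel: each measured gene of the replication members, the other replication genes and the mitosis genes, with the list median as a bar; the red points of chromosome 8 fall under the red curve, and the medians are 0.01, -0.03 and 0.09.

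The 6 members lay inside the range of the chromosome's other genes. Among the 595 other measured genes of chromosome 8, 15.6% had a ratio at or below that of Gins4, 33.4% at or below Gins2, 42.5% at or below Mcm5, 49.1% at or below Orc6, 70.6% at or below Gins3 and 72.9% at or below Cdt1. The running median over 31 consecutive genes stayed between -0.54 and -0.24 along the chromosome, so no stretch of that length was at the shift. Each member was also compared with its nearest measured genes in RefSeq gene order, 5 on each side where the chromosome extended that far, leaving out other members. Of the 60 neighbours of the chromosome 8 members, 50 lay below the shift, and the medians of the 6 sets ran from -0.42 to -0.25. Orc6 (-0.38) and its neighbours (median -0.40) were nearly equal, as were Gins2 (-0.48) and its neighbours (-0.42). Cdt1 and Gins3 were 0.05 and 0.14 above their neighbours, and Mcm5 and Gins4 were 0.17 and 0.34 below theirs.

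**Figure D4:**
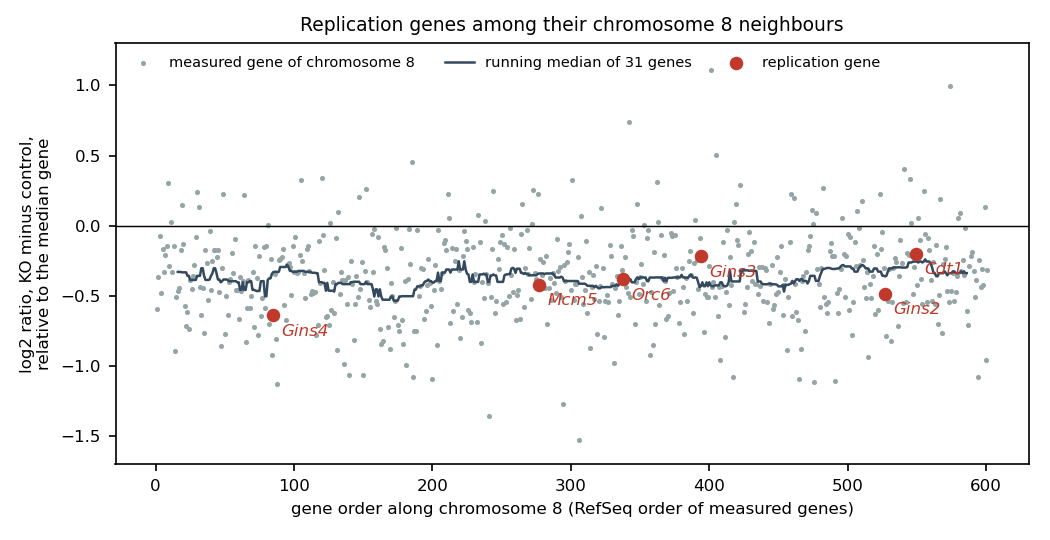
Log2 ratio (KO minus control, relative to the median gene) of each measured gene of chromosome 8 in RefSeq gene order (grey), with the running median of 31 genes (line) and the 6 replication members (red). The line stays between -0.54 and -0.24, and the red points lie within the spread of the grey ones.

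Outside chromosome 8 the lowest members were lower than most of their neighbours, which follows largely from choosing them by their low ratios. Pola2, on chromosome 19, was lower than each of its 10 neighbours, whose median was 0.04 and whose lowest value was -0.24. Pold2, on chromosome 11, was likewise below all 10 of its neighbours (median 0.05, lowest -0.34). Pola1 (-0.39) had neighbours with a median of -0.06, of which 2 were at or below it. Rfc1 and Rfc3, both on chromosome 5, had neighbours with medians of -0.06 and 0.06, although only 5 were counted for Rfc3. For the 35 members outside chromosome 8 the neighbour medians ran from -0.20 to 0.19.

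**Figure D5:**
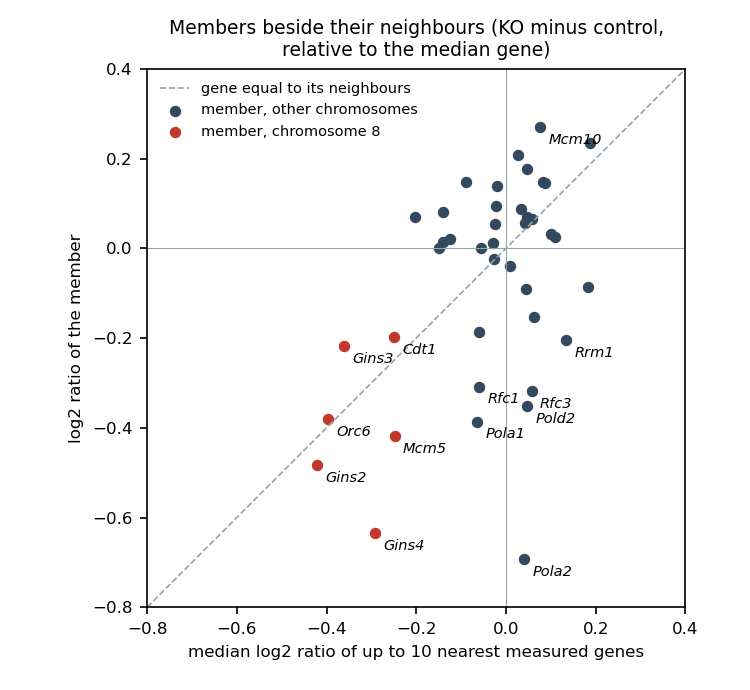
Log2 ratio of each member (vertical axis) against the median log2 ratio of its nearest measured genes (horizontal axis), both KO minus control relative to the median gene, with equality dashed. The 6 members of chromosome 8 (red) lie at low values on both axes, and Pola2, Pold2, Pola1, Rfc1 and Rfc3 are low on the vertical axis only.

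A further 41 genes of replication and its control were listed, of which 39 had a probe set of their own and all 39 were above the floor on at least 1 array. Among the 38 that exceeded both floors none differed by 2-fold or more relative to the shift, where 1.09% of all measured genes were that much higher and 0.532% lower, and the bound for Mcm9 leaves its size unknown. As deposited, Mcm9 and Pole3 were at least 2-fold higher (4.92% of all genes). Their median was -0.03, with 18 above the shift and 21 below, and their spread was wider than that of the members, with an SD between genes of 0.33 against 0.24. Pcna, the clamp that RFC loads, went from 6611.5 to 7769.0 (-0.19). The 3 highest were Mcm9, a helicase of recombination, at 0.77 or above, since it was at the floor on the control array (59.1 to 139.5), Pole3, a histone-fold subunit of polymerase epsilon, at 0.74 (216.6 to 484.6, mean 0.42 ± 0.44, SD between 2 probe sets), and Ticrr, which helps to activate origins, at 0.43 (214.5 to 388.5, mean 0.23 ± 0.25, SD between 3 probe sets). The 3 lowest were Rnaseh2a, a subunit of the nuclease that removes RNA from DNA, at -0.54 (973.0 to 899.6), Mtbp, the partner of Ticrr, at -0.49 (162.0 to 154.5), and Slbp, which binds histone mRNA, at -0.46 (2454.6 to 2393.8, mean -0.32 ± 0.20, SD between 2 probe sets). Chromosome 8 held 3 of the 39, and all 3 were below the shift, with a median of -0.42, while the other 36 had a median of -0.01, 18 of them above the shift. Of 24 measured mitosis genes, which mark cells in later phases of the cycle, 17 lay above the shift. So did 5431 of the 10363 genes of chromosomes other than 8 exceeding both floors. None of the 24 was 2-fold different, where 1.62% of all measured genes were. The median of the mitosis genes was 0.09, and none lies on chromosome 8.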

How the data were processed

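Total RNA from 2 cultures was labelled with biotin by a one-cycle kit and hybridised to 2 Affymetrix arrays, per the labels' protocols. The signal intensity of each probe set was made by the authors with MAS5, per the submitters' processing notes. No scaling target or detection call is given by the sources used here. Of 45101 probe sets, 64 Affymetrix controls were left out. Gene names come from the platform annotation, where 34958 probe sets had 1 symbol, 932 several and 9211 none, and 1 probe set that names both Orc4 and another gene was not used. Symbols were updated, and chromosomes taken, through gene identifiers held in the RefSeq table of GRCm38.p6 for 34741 of 34945 non-control probe sets with 1 symbol. The build behind the array annotation is not stated, so none is used for probe sets, and the base positions of promoters are those of the RefSeq table. Log2 ratios were computed in Python 3.11.15 (pandas 2.3.3), with lowess from statsmodels 0.14.6. They were centred on the median gene above the floor on both arrays, and the procedure was tested on simulated data. The members and lists were chosen with earlier results of these data known. All 41 members are named, and of the other replication genes Pcna and the 3 highest and 3 lowest. No test was run between groups of 1 array, and the precision of every value is limited by that number of arrays. Other scalings, floors, probe set choices and thresholds were tried.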

Additional observations from a re-analysis of the deposited data

How the results depend on the processing

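No member was at least 2-fold higher or lower in any scaling, floor or choice of probe set tried, and at a threshold of 3-fold the count was also 0 in each direction. A threshold of 1.5-fold gave 0 higher and 2 lower. As deposited, without centring, the medians moved by the shift: to 0.44 for all members, 0.44 for licensing, 0.44 for helicase, 0.31 for polymerase, 0.46 for clamp loader, 0.45 for single-strand binding, 0.60 for Okazaki fragment joining and 0.25 for nucleotide supply genes, 0.025 for the chromosome 8 members and 0.45 for the other members. The direction against 0 is therefore set by the scaling, and changed as deposited for 15 of 41 members. The difference between the medians of the chromosome 8 members and the other members does not depend on a constant shift, and its value closest to 0 was -0.33, with plain-suffix probe sets in place of the brightest. In that setting Mcm5 was at -0.16 and Gins2 at -0.80. Averaging probe sets put the median of all members at -0.06 and that of the clamp loader genes at -0.08. Quantile normalization, lowess, floors at the 25th and 75th percentile, no floor, the median over probe sets, leaving out chromosome 8, and a centre without chromosomes 8 and X moved each median by less than 0.24, the SD between probe sets. No paired analysis was possible because the groups share only 1 replicate number. No gene had replicates, so no difference of any size could be set against an error between cultures or arrays. The SD between probe sets does not measure that error.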

Other observations

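Several replication genes share a short stretch of promoter with a gene read in the opposite direction. In the RefSeq promoter table, 12 of the 33 members found there had such a head-to-head partner with annotated starts at most 1000 bases apart, and 5 of these partners were above the floor on both arrays. Prpf38a, a splicing factor gene 118 bases from Orc1, had a log2 ratio of 0.09 relative to the shift (control signal 700.4, KO signal 1000.6) beside 0.05 for Orc1. Smyd4, 50 bases from Rpa1, had 0.03 (225.7 and 308.9), equal to Rpa1. Ufd1, a gene of protein degradation 322 bases from Cdc45, had 0.13 (450.7 and 662.1) beside 0.02. Rars2, a mitochondrial arginyl-tRNA synthetase gene 15 bases from Orc3, had -0.25 (564.1 and 635.9) beside 0.01. Tmem258, 281 bases from Fen1, had -0.52 (232.7 and 218.7) beside 0.15. These partners were chosen by position alone, and 3 of the 5 lay within 0.25 of the shift, as did 60.9% of the 10995 genes exceeding both floors. The share of all genes in the promoter table with a head-to-head partner was not counted. Ap4m1, 138 bases from Mcm7, was at the floor on the control array, so its ratio was 0.57 or above (22.5 and 121.6).

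The E2F word was also counted outside the 41 members. It lay in the promoters of 8 of 32 other replication genes (25%) and of 1 of 21 mitosis genes (4.76%). The CCAAT word, searched on both strands, lay in 22 of 33 members (66.7%), 17 of 21 mitosis genes (81%) and 41.1% of all genes in the table. Members with the E2F word had a median log2 ratio of 0.03 (14 genes, from -0.42 to 0.21), and members in the table without it had 0.02 (19 genes, from -0.69 to 0.27).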
